A study of Mus musculus with 107 samples.

Results

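The Hox genes are homeobox transcription factors arranged in 4 clusters, HoxA to HoxD. Of the 39 Hox genes that RefSeq lists in the mouse clusters, 33 had a probe set annotated with that gene's symbol alone and make up the set described here, out of 18194 genes measured in this way. They comprise 9 HoxA, 9 HoxB, 7 HoxC and 8 HoxD genes. Where a gene had several such probe sets, the one with the highest mean over all arrays was used, which applied to 11 of the 33. The other 6 genes were not analysed here.

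Within a cluster, Hox genes lie in the order in which they are switched on along the body axis: low paralog numbers reach into the hindbrain, middle numbers begin near the border of hindbrain and neck, and high numbers are restricted to trunk, lumbar and tail levels. The forebrain and midbrain lie in front of this domain. In the embryonic spinal cord of mouse and chick, Hox proteins set the columns and pools into which motor neurons are sorted, acting with cofactors of the Pbx and Meis families, and part of the code persists in the adult.

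The samples come from translating ribosome affinity purification (TRAP), in which tagged ribosomes of a chosen cell type, and the RNA on them, are purified from the tissue of transgenic mice. The 2 populations in which most of the Hox signal lies were both taken from mice carrying a bacterial artificial chromosome with the chat driver, line DW167: the cholinergic neurons of the spinal cord (3 arrays) and the motor neurons of the brainstem (3 arrays). Their counterparts are the unbound RNA left after purification from spinal cord (3 arrays) and from brainstem (3 arrays) of the same line. The same driver and line gave the cholinergic neurons of corpus striatum and basal forebrain. The other 20 TRAP populations came from cortex, striatum and cerebellum: Cck+ (driver cck), Cort+ (cort), Pnoc+ (pnoc), layer 5a (etv1), layer 5b (glt25d2) and layer 6 neurons (ntsr1), Drd1+ and Drd2+ medium spiny neurons (drd1, drd2), Golgi (grm2), granule (neurod1), Purkinje (pcp2), stellate and basket (lypd6) and unipolar brush neurons (grp), Bergmann glia (septin4), and, from both cortex and cerebellum, astrocytes (aldh1l1), mature oligodendrocytes (cmtm5) and mixed oligodendroglia (olig2). Unbound RNA of cortex (9 arrays), striatum (6), cerebellum (7) and basal forebrain (3) completed the set. These unbound arrays pool 9 mouse lines in cortex, 3 in striatum and 3 in cerebellum, the Purkinje and cortical astrocyte populations hold 2 lines each, and 7 of the 22 populations outside cord and brainstem, Cort+, Golgi, granule, stellate and basket and unipolar brush neurons and the cerebellar astrocytes and mixed oligodendroglia, have no unbound array of their own line. The labels do not give the age or sex of the mice, how many were pooled, or the segmental level of the cord. All animals with the chat driver are of 1 line, the unbound RNA still holds RNA of the targeted cells, and the chat driver does not select a motor pool. The labels do not state which share of the cholinergic cells of a region the line marks.

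Levels are log2 of the deposited intensities after scaling to the arrays' biotinylated controls, and a group mean of 6, an intensity of 64, was taken as the lower limit for a gene to enter a test. A gene was called when limma gave an adjusted p under 0.05 and the difference was at least 2-fold, with the spread taken from all arrays or, where stated, from a fit of the compared arrays only. Array minima lay between 1.55 and 3.53, and 41.7 to 57.4% of all values on an array lay within 0.5 of its minimum. Replicates of a group held the same value for 20.8 to 66.5% of probe sets, Hox probe sets included, so the standard error of a gene with identical values understates its uncertainty. Most defining markers of the labelled cell types were present. In the cord, summed cholinergic markers lay at 12.59 to 12.94 in captured RNA, against 9.71 to 10.47 in unbound RNA. In the brainstem they lay at 14.1 to 14.39 in captured RNA and at 9.25 to 10.44 in unbound RNA. All 4 cholinergic markers tested were called higher in captured RNA in both tissues, while Chat itself stayed below 6 in all 4 groups. All 5 motor neuron markers on the array were at 6 or above in both captured groups. All 5 oligodendrocyte markers were also at 6 or above in captured RNA, with a summed level of 14.24 to 15.02 in the cord and 13.34 to 14.2 in the brainstem, below the 16.59 to 16.69 of unbound cord and the 16.47 to 16.68 of unbound brainstem. Of 4 inhibitory neuron markers, 4 were at 6 or above in captured brainstem and 3 in captured cord RNA. The excitatory neuron gene Slc17a6 was at 10.92 and 9.31, below unbound RNA (13.27 and 12.92). Dcn, listed for meninges, was called higher in captured than unbound brainstem RNA (10.16 and 8.28), and was lower in the cord (7.47 and 10.03).

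Brainstem preparation 1 stood apart from preparations 2 and 3 in its Hox genes, in both fractions. A preparation here means the captured and unbound arrays with the same number, which the labels do not state to share a sample. Hoxb5, a gene of the caudal hindbrain and cord, measured 3.85, 11.34 and 11.67 in the 3 captured brainstem arrays and 8.13, 11.65 and 12.02 in the 3 unbound ones. Hoxc4 measured 5.49, 10.27 and 10.28 in captured and 7.22, 9.43 and 10 in unbound RNA. In each triplet, preparation 1 is the first and the low value, and the other two lie close together. Of the 8 members other than Hoxa5 that reached 6 in a brainstem group, 7 were lower by at least 1 in captured RNA of preparation 1 than the mean of the other two (median -2.77), as were all 8 in unbound RNA (median -3.1). Over all 10378 genes at that level the medians were 0 in both fractions, with 4.28% of genes lower by at least 1 in captured and 5.42% in unbound RNA. Among the 10 genes lowest in preparation 1 in both fractions, 4 were Hox genes, Hoxb5, Hoxc5, Hoxb6 and Hoxa4, and the lowest of all was Galc, a lysosomal enzyme of myelin lipid breakdown, at -5.48 in captured and -5.59 in unbound RNA. Medians of the marker lists in that preparation were -0.22 in captured and -0.58 in unbound RNA for cholinergic markers, -0.06 and -0.13 for motor neuron markers, -0.21 and -0.52 for inhibitory neuron markers, 0.29 and -0.2 for astrocyte markers, 0.22 and -0.27 for oligodendrocyte markers and 0.01 and 0.13 for microglia markers. Single markers moved by more: in captured RNA Mnx1, the homeobox gene of somatic motor neurons, was at -3.38, the astrocyte genes Gfap and Gjb6 at 2.1 and 2.03 and the microglia gene Csf1r at 1.88, and in unbound RNA 2 of 4 cholinergic markers were lower by at least 1, the glycine transporter gene Slc6a5 was at -2.07 and Lbx1, a gene of dorsal interneurons, at -1.78. The Y-linked gene Eif2s3y was also among the 10, at -2.71 in captured and -5.56 in unbound RNA. The cause of the difference was not tested. Calls of Hox genes that use the brainstem arrays are therefore given with and without preparation 1.

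Outside brainstem and cord, Hox genes other than Hoxa5 were at or near the array minimum. Across 95 arrays of 26 groups, 96.5% of the values of these 32 genes lay within 0.5 of the array minimum, and the highest was 4.94, for Hoxb4 and Hoxa7 in Cck+ neurons. None of the 32 reached a group mean of 6 there. In cord, 14 of the 32 reached 6 in captured and 17 in unbound RNA. In brainstem, 5 reached it in captured and 8 in unbound RNA, and 6 and 9 without preparation 1. Of all genes, 42.6% reached 6 in captured cord RNA, 48.2% in captured brainstem RNA and 55.5% in each of the 2 unbound groups. In bulk RNA such as this, fewer cells that express a gene and less RNA per cell cannot be told apart.

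**Figure D1:**
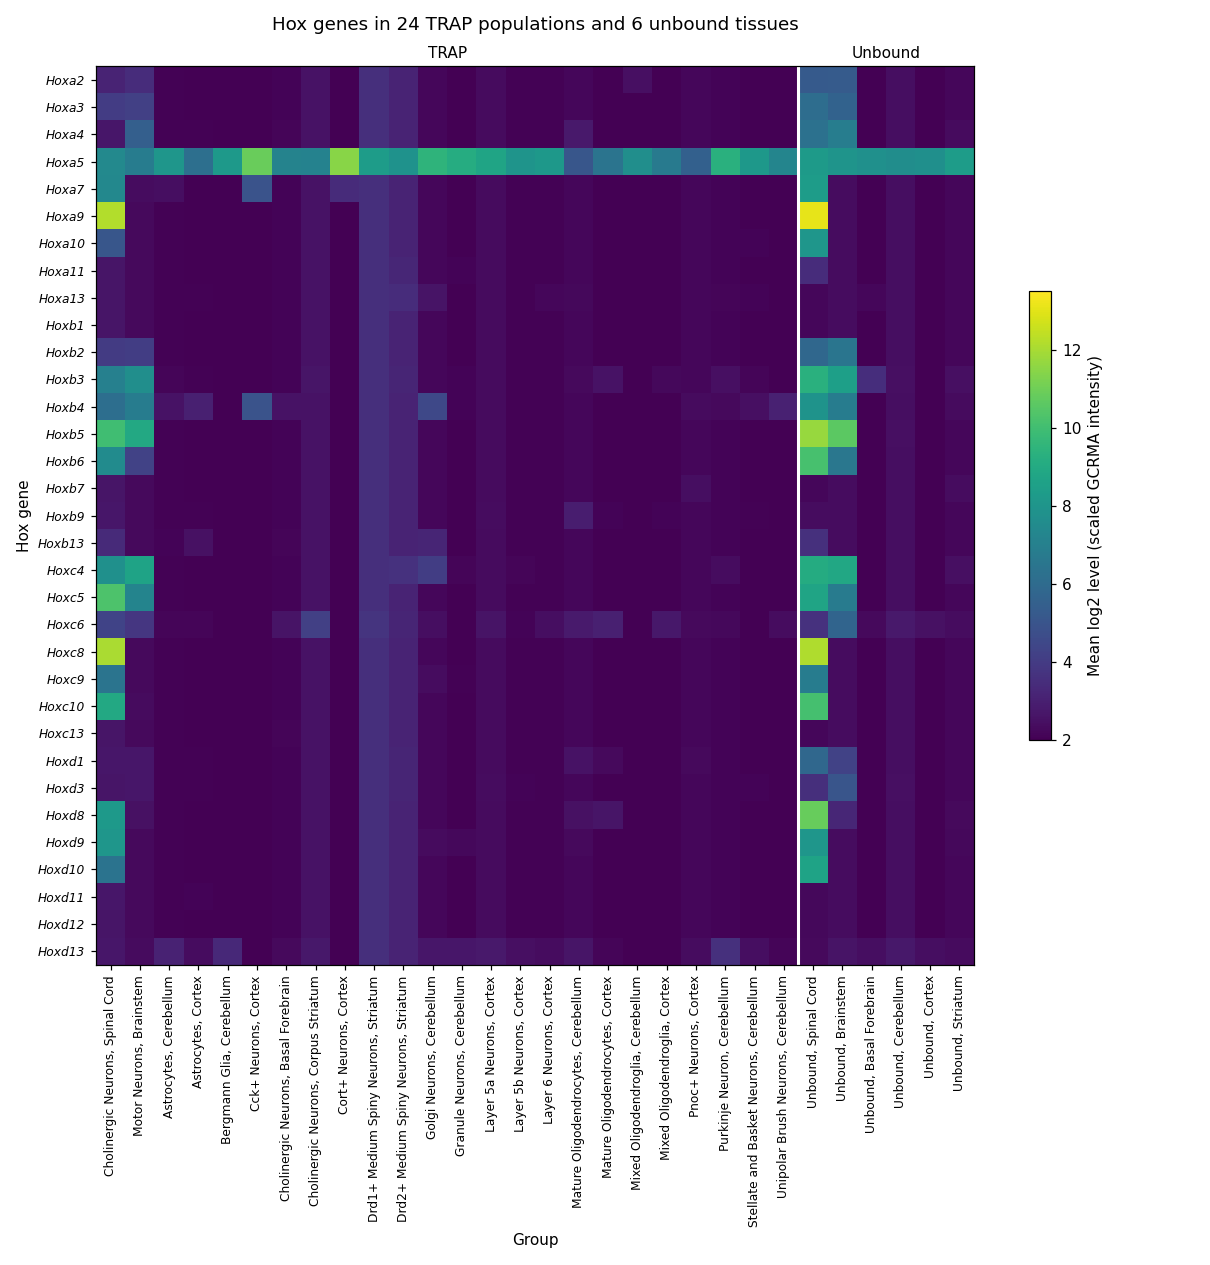
Mean log2 level (colour) of the 33 Hox genes (rows) in the 24 TRAP populations and the unbound RNA of 6 tissues (columns). Levels above 6 lie in the cord and brainstem columns, apart from the row of Hoxa5, which is at 6 or above in 28 groups.

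Among the members, the paralog number separated the 2 tissues. Of the 8 members with paralog numbers 4 to 6, 6 reached 6 in captured cord RNA and 7 in unbound cord RNA, against 5 in captured and 7 in unbound brainstem RNA. Without brainstem preparation 1 the captured brainstem count was also 6, with Hoxa4 at 6.37. Of the 11 members with numbers 7 to 10, 8 reached 6 in captured and 9 in unbound cord RNA, against 0 and 0 in the brainstem. Of the 7 with numbers 1 to 3, 1 reached it in captured and 2 in unbound RNA of either tissue (3 in unbound brainstem RNA without preparation 1), and none of the 7 with numbers 11 to 13 did so anywhere. Hoxb7 and Hoxb9 stayed under 6 in the cord as well as in the brainstem. A probe set annotated to both Hoxb8 and Hoxb7, outside the members, measured 3.78, 7.38 and 7.73 in the unbound brainstem arrays. In captured brainstem RNA it measured at most 4.55.

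The cord members with numbers 7 to 10 include genes that mark motor columns in the mouse embryo. Hoxc8, used by motor pools at forelimb level, measured 11.99, 12.21 and 11.99 in captured and 11.92, 12.02 and 12.39 in unbound cord RNA, and 2.31 in all captured and 2.38 in all unbound brainstem arrays. Hoxc9, which sets the thoracic columns and represses limb-level Hox genes, measured 6.48, 6.57 and 6.22 in captured cord RNA and 6.84 in all 3 unbound cord arrays. Hoxc10, a lumbar gene, measured 8.95, 9.15 and 8.72 in captured and 10.2, 10.2 and 9.86 in unbound cord RNA. For all 3 genes every cord array lay far above every brainstem array. Hoxd10, which with Hoxa10 and Hoxc10 patterns lumbar motor neurons, measured 6.71, 6.18 and 6.18 in captured and 8.81, 9.09 and 8.15 in unbound cord RNA. Hoxa9 measured 12.23, 12.24 and 12.06 in captured and 13.1, 13.1 and 13.06 in unbound cord RNA, and 2.31 in all captured and 2.38 in all unbound brainstem arrays. Hoxa7 measured 7.34, 7.34 and 7.39 in captured cord RNA and 2.38 in all brainstem arrays. Hoxd8, the neighbour of Hoxd9 in its cluster, measured 8.07, 8.48 and 8.06 in captured and 10.73, 10.85 and 10.86 in unbound cord RNA, against at most 3.24 in any brainstem array. Hoxd9 measured 8.12, 8.05 and 7.9 in captured and 7.95, 8.93 and 7.25 in unbound cord RNA. Genes known from forelimb, thoracic and lumbar levels were thus measured side by side in the same cord preparations.

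**Figure D2:**
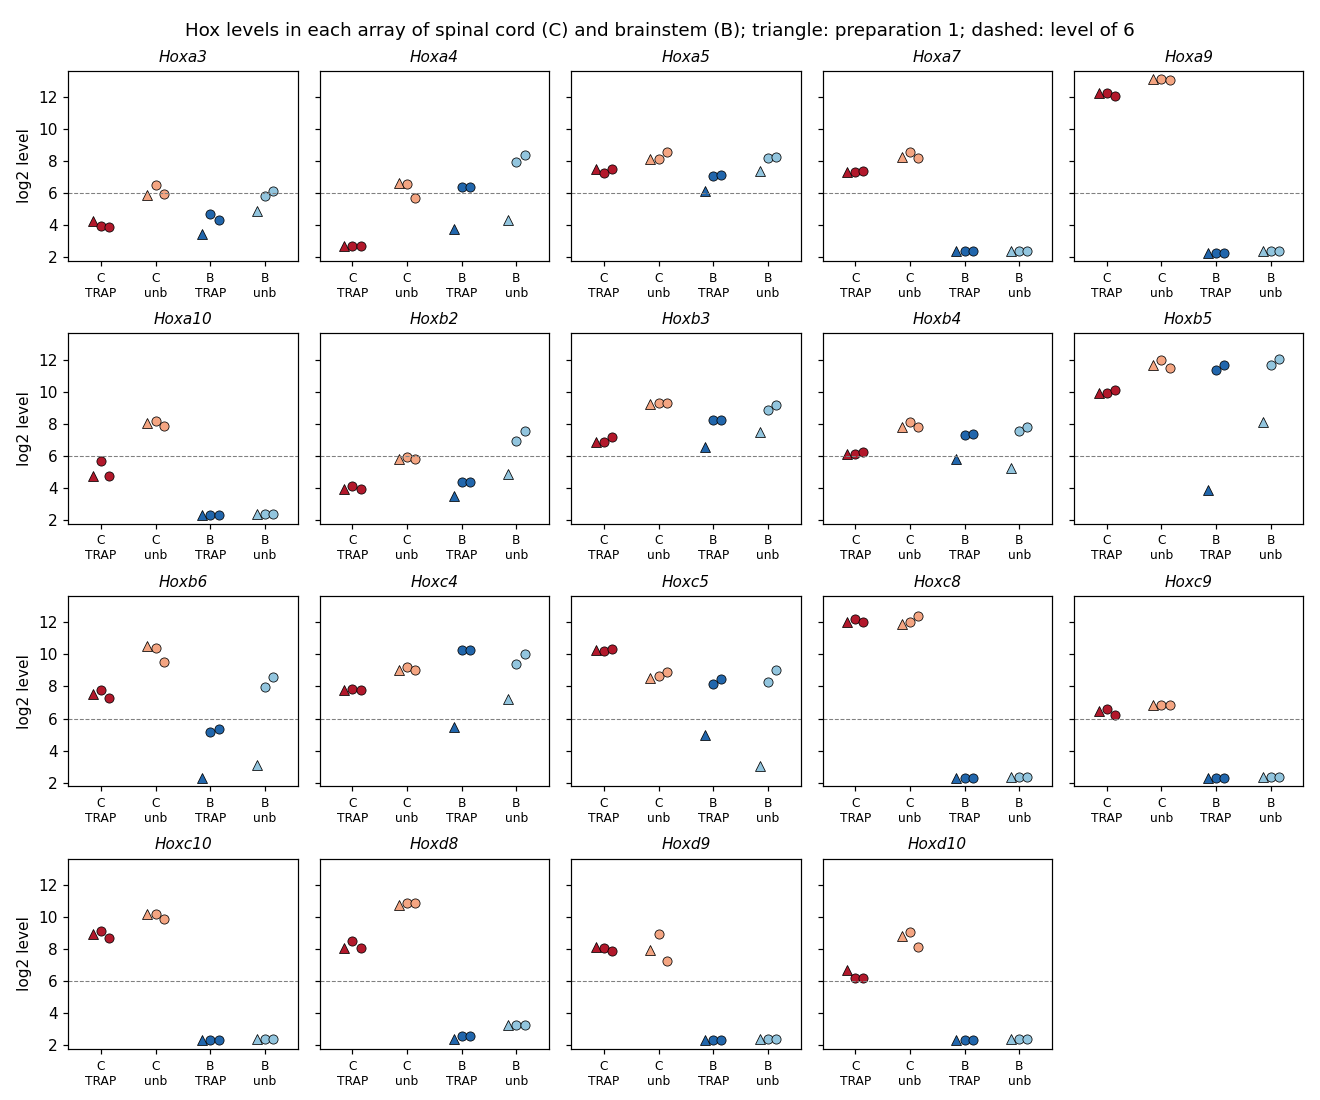
Log2 level (y axis) of each of the 19 Hox genes that reach 6 in a group, in every array of cord (C) and brainstem (B), with captured (TRAP) left of unbound (unb) RNA. Triangles mark preparation 1 and the dashed line a level of 6: genes numbered 7 to 10 stay at the bottom in brainstem, and the brainstem triangles of Hoxa4, Hoxb5, Hoxb6, Hoxc4 and Hoxc5 lie below their partners.

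Promoters of 4 members are shown to set genes of the cord alone beside genes of both tissues: 1 HoxA and 1 HoxD gene found in the cord only, and 1 HoxB and 1 HoxC gene found in both. The windows are RefSeq's for GRCm38.p6, from 250 bases before to 50 after the start, printed 5′ to 3′ on the gene's strand, with capitals for AGGTCA, the half-site of retinoic acid receptors, or its reverse complement TGACCT. Hoxa9 lies at chr6:52227321-52227620 on the minus strand, Hoxd8 at chr2:74704365-74704664, Hoxb4 at chr11:96318017-96318316 and Hoxc4 at chr15:103034145-103034444, all 3 on the plus strand.
Hoxa9: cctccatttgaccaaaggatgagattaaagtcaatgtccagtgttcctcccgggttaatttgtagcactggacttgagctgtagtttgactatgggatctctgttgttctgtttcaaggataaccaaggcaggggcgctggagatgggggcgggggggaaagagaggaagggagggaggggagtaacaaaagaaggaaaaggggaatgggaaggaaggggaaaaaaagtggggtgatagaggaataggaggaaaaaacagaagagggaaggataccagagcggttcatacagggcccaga
Hoxd8: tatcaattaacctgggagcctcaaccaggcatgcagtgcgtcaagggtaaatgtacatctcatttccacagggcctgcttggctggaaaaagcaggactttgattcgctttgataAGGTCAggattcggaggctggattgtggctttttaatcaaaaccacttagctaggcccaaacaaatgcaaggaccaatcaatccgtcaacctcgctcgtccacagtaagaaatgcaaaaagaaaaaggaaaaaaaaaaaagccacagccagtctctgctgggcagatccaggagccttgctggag
Hoxb4: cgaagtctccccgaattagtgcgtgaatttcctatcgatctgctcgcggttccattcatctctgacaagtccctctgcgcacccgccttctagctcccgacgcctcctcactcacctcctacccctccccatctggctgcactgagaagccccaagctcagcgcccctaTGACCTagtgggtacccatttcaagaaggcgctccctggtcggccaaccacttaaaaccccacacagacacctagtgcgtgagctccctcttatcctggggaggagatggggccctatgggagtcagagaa
Hoxc4: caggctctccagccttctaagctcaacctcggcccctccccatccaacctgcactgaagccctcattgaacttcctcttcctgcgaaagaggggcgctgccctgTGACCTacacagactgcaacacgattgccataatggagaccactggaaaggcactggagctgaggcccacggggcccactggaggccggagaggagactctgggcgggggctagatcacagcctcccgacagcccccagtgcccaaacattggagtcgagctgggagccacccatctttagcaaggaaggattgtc
The half-site begins at position -135 from the start in Hoxd8, -81 in Hoxb4 and -146 in Hoxc4, and these letters are not in the Hoxa9 window. RefSeq's table held 21 promoters for 19 of the 33 members, of 32851 promoters of this length. Searched on both strands, overlapping matches included, AGGTCA was found in 6 of the 21 (28.6%), against 16.3% of all promoters. The letters TGATNNAT, bound by Hox and Pbx pairs, were found in 3 (14.3%), against 8.85%. TTTATG, a site of the Cdx factors, was found in 3 (14.3%), against 11.9%, and TAATTA, a homeodomain core, in 2 (9.52%), both of Hoxd11, against 5.29%. Member promoters had a median of 15 CpG dinucleotides (range 4 to 45), against 7 over all promoters. These are counts of letters in a window, not binding sites.

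In unbound RNA, cord minus brainstem, 12 of 19 Hox genes tested were called higher and 0 lower (14 and 1 in limma at an unadjusted p under 0.05), where 7.01% of all genes were higher and 8.2% lower. All 9 with numbers 7 to 10 were among the 12, and the same 9 were called when only the arrays of the compared groups were fitted, which gives 5.98% higher and 6.91% lower over all genes. These 9 entered the test through their cord level alone, so their calls restate that level. With levels under 6 set to 6, the cord level was at least 136-fold higher for Hoxa9 (difference 10.71, adjusted p = 2.5e-08 in the fit of the compared arrays), at least 69-fold for Hoxc8 (9.73, adjusted p = 5.12e-06) and at least 28.1-fold for Hoxd8 (7.57, adjusted p = 4.51e-07). The bounds were at least 17-fold for Hoxc10, at least 6.41-fold for Hoxd10, at least 5.07-fold for Hoxa7, at least 4.12-fold for Hoxd9, at least 4.06-fold for Hoxa10 and at least 1.79-fold for Hoxc9. The 3 others called over all arrays were Hoxb6 (3.59), Hoxc5 (1.93) and Hoxb4 (1.07), and none of them was called in the fit of the compared arrays, with adjusted p of 0.156, 0.432 and 0.332. Without brainstem preparation 1 the difference was 1.87 for Hoxb6, called in both fits, 0.07 for Hoxc5 and 0.25 for Hoxb4, neither of them called.

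In captured RNA, without regard to unbound RNA, 10 of 15 Hox genes tested were called higher in cord cholinergic than in brainstem motor neurons and 0 lower (10 and 3 in limma at an unadjusted p under 0.05), where 1.5% of all genes were higher and 37% lower. The 8 with numbers 7 to 10 were called in both fits, where the fit of the compared arrays gives 1.46% of all genes higher and 36.5% lower. These 8 entered the test through their cord level alone, so their calls restate that level. Hoxa9 differed by 9.86 (adjusted p = 8.81e-14 in the fit of the compared arrays; at least 72.3-fold), Hoxc8 by 9.75 (adjusted p = 5.41e-11; at least 66.9-fold) and Hoxc10 by 6.62 (adjusted p = 7.23e-10; at least 7.67-fold). Hoxd9, Hoxd8, Hoxa7, Hoxc9 and Hoxd10 had bounds of at least 4.06-fold, 4.6-fold, 2.56-fold, 1.34-fold and 1.28-fold. Hoxb6 and Hoxc5 were called in the fit over all arrays (3.26 and 3.08), while in the fit of the compared arrays their adjusted p were 0.059 and 0.0898. The series' own text advises keeping genes enriched in captured over unbound RNA. Under that rule 2 Hox genes were tested and 1, Hoxc5, was called higher (1.2% of all genes higher, 38.5% lower), with a difference of 3.08 ± 0.494 (SE; 8.45-fold; adjusted p = 1.58e-07 over all arrays, and 0.0874 in the fit of the compared arrays, where 1.12% of all genes were higher and 38.1% lower). The other gene tested, Hoxa7, was not above unbound RNA in the cord, and it lay at 2.38, near the array minimum, in both brainstem fractions. With quantile normalization of all arrays, 499 genes were higher and 533 lower in place of 49 and 1576, and of 10 Hox genes then tested under the rule 5 were called higher (Hoxa7, Hoxc5, Hoxc8, Hoxc9 and Hoxd9) and 0 lower.

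**Figure D3:**
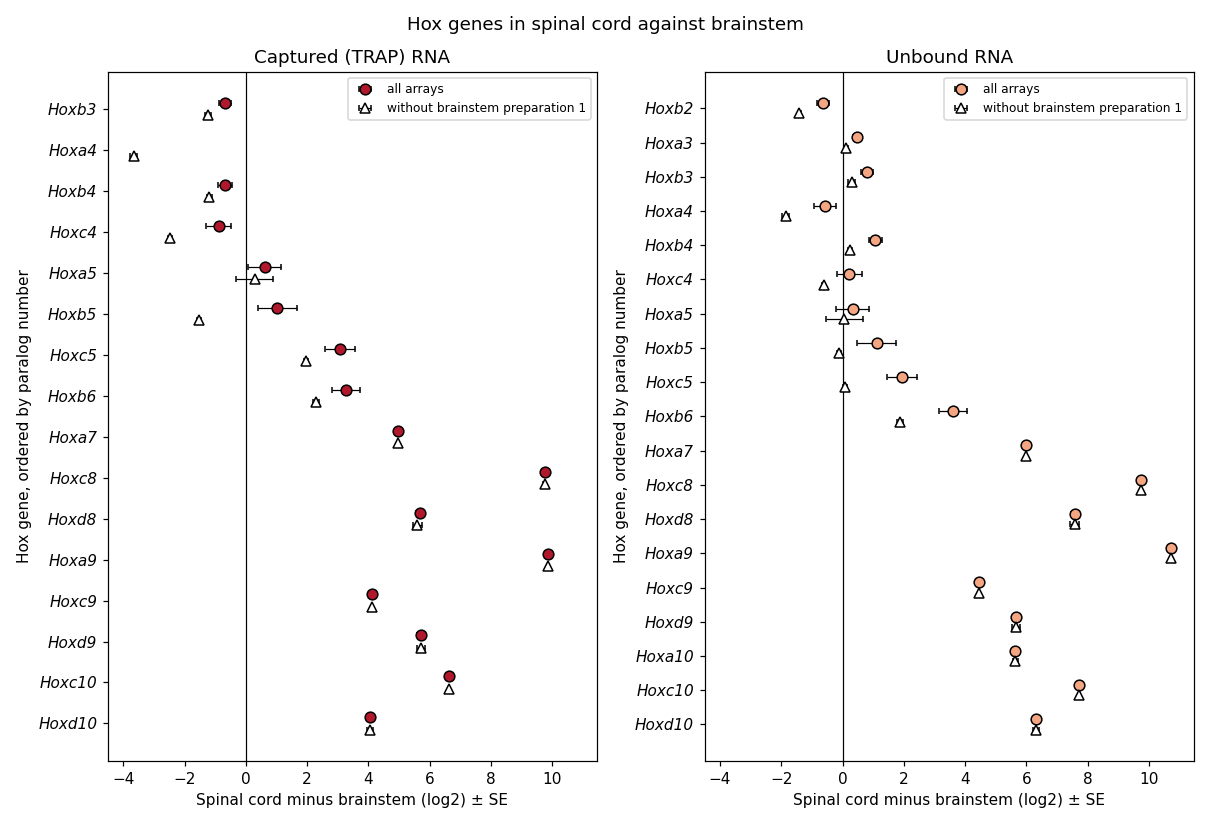
Spinal cord minus brainstem (x axis, log2 ± SE of the fit over all arrays) for each Hox gene tested, in captured RNA (left) and unbound RNA (right), ordered by paralog number; triangles leave out brainstem preparation 1. Differences are 4 or more from Hoxa7 downwards with or without that preparation, and lie between about -4 and 4 for lower numbers, where many move when it is left out.

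Without brainstem preparation 1 some genes with low numbers were called lower in captured cord RNA, at a share no higher than that of all genes. Then 16 Hox genes were tested and 5 were called lower in cord than in brainstem, in both fits, against 37.8% of all genes called lower in the fit over all arrays and 37.7% in that of the compared arrays: Hoxa4 (-3.66), Hoxc4 (-2.48), Hoxb5 (-1.52), Hoxb3 (-1.23) and Hoxb4 (-1.19). The median difference over all genes tested was -0.77 in both fits, so part of each decrease is shared with genes at large. The same 10 genes as before were called higher, where 2.07% and 2.18% of all genes were. With the rule on unbound RNA, 3 were tested, of which Hoxc5 was called higher and Hoxc4 lower (1.44% of all genes higher, 38.9% lower). Hoxa4 was at 2.71 in all 3 captured cord arrays, near the array minimum, against 6.37 in both remaining captured brainstem arrays, so that with levels under 6 set to 6 its decrease was at least 1.29-fold. Among genes sharing a paralog number, Hoxb5 and Hoxc5 moved in opposite directions. Hoxc5, which with Hoxa5 is needed for phrenic motor neurons in the mouse embryo, measured 10.29, 10.21 and 10.31 in captured cord RNA and 4.95, 8.16 and 8.45 in captured brainstem RNA. Hoxb5 measured 9.92, 9.92 and 10.11 in captured cord RNA, between the low value of brainstem preparation 1 and the 2 others. Without that preparation Hoxc5 was higher in cord by 1.96 (adjusted p = 0.000226 in the fit of the compared arrays) and Hoxb5 lower by 1.52 (difference -1.52, adjusted p = 0.000262). Unbound RNA of the cord without that preparation showed 10 Hox genes higher and 2 lower, in both fits, against 7.46% and 9.67% of all genes in the fit over all arrays and 6.7% and 8.38% in that of the compared arrays. The 2 lower genes were Hoxa4 (-1.86) and Hoxb2 (-1.41), a gene of the anterior hindbrain segments.

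In the cord, captured RNA was set against unbound RNA of the same tissue. Of 18 Hox genes tested, 1 was called higher and 11 lower in captured RNA, where 5.38% of all genes were higher and 53.3% lower. The Hox share of lower calls lies near that background, and the median difference was -1.51 for the Hox genes and -1.12 for all genes tested. The one gene called higher was Hoxc5, at 10.29, 10.21 and 10.31 in captured RNA, against 8.55, 8.68 and 8.89 in unbound RNA. No array of the 2 fractions overlapped, and the difference of 1.56 ± 0.494 (SE) was 2.95-fold, with an adjusted p of 0.00343 over all arrays and 0.000117 in the fit of the compared arrays. The other 2 probe sets of Hoxc5 measured 2.71 and 4.94 in captured and 2.28 and 5.33 in unbound cord RNA, so this call rests on 1 probe set.

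Among the 11 lower genes, 8 were at 6 or above in both fractions: Hoxd8 fell by 2.61, Hoxb6 by 2.6, Hoxd10 by 2.32, Hoxb3 by 2.31, Hoxb4 by 1.78, Hoxb5 by 1.73, Hoxc4 by 1.3 and Hoxc10 by 1.15. The other three were under 6 in captured RNA and have only a bound, taken with levels under 6 set to 6. Hoxa10 measured 4.75, 5.66 and 4.75 in captured and 8.03, 8.19 and 7.84 in unbound RNA, at least 4.06-fold lower. Its adjusted p in limma was 1.32e-51 over all arrays, most of which hold no Hox signal, and 0.00062 in the fit of the compared arrays. Hoxa4 measured 2.71 in all 3 captured arrays, near the array minimum, against 6.64, 6.57 and 5.71 in unbound RNA, at least 1.24-fold lower (adjusted p = 8.89e-15 over all arrays and 0.000233 in the fit of the compared arrays), and Hoxa3 was at least 1.08-fold lower. Hoxb3, a gene of caudal hindbrain and cord, measured 6.9, 6.9 and 7.18 in captured RNA, against 9.26, 9.33 and 9.33 in unbound RNA. Hoxb6 measured 7.51, 7.81 and 7.3 in captured RNA, against 10.53, 10.4 and 9.5 in unbound RNA. For these genes, too, the 2 fractions did not overlap, and how often this holds over all genes was not counted. The second probe sets of Hoxa10 (2.66 in captured, 2.19 in unbound RNA), Hoxa4 (3 and 2.19) and Hoxb4 (2.69 and 2.38) were under 6 in both fractions. The other probe sets of Hoxa3 were also under 6, so the lower calls of these 4 genes rest on 1 probe set each. The second probe sets of Hoxb3 (3.5 and 7.17) and Hoxd8 (8.02 and 11.12) were lower in captured RNA as well. All 4 HoxB genes tested were among the lower ones (median -2.04), as were 2 of the 3 HoxD genes (median -2.32) and 3 of the 6 HoxA genes (median -1.52), while of the 5 HoxC genes 1 was higher and 2 lower (median -0.42). The 6 genes without a call were Hoxa5, Hoxa7, Hoxa9, Hoxc8, Hoxc9 and Hoxd9, with differences of -0.86, -0.99, -0.91, -0.04, -0.42 and -0.02. The scaling bears on all of these values. When all arrays were quantile normalized instead, the median over all genes was 0.1, with 2467 genes higher and 2439 lower in place of 551 and 5468, and the Hox calls were 3 higher (Hoxc5, Hoxc9 and Hoxd9) and 4 lower (Hoxa10, Hoxb3, Hoxb6 and Hoxd8). Relative to the median of all genes in the control scaling, Hoxc5 stood at 2.68, Hoxd9 at 1.1, Hoxc8 at 1.08 and Hoxc9 at 0.7. Fitting only the compared arrays left the counts at 1 and 11 (5.34% and 53% of all genes).

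**Figure D4:**
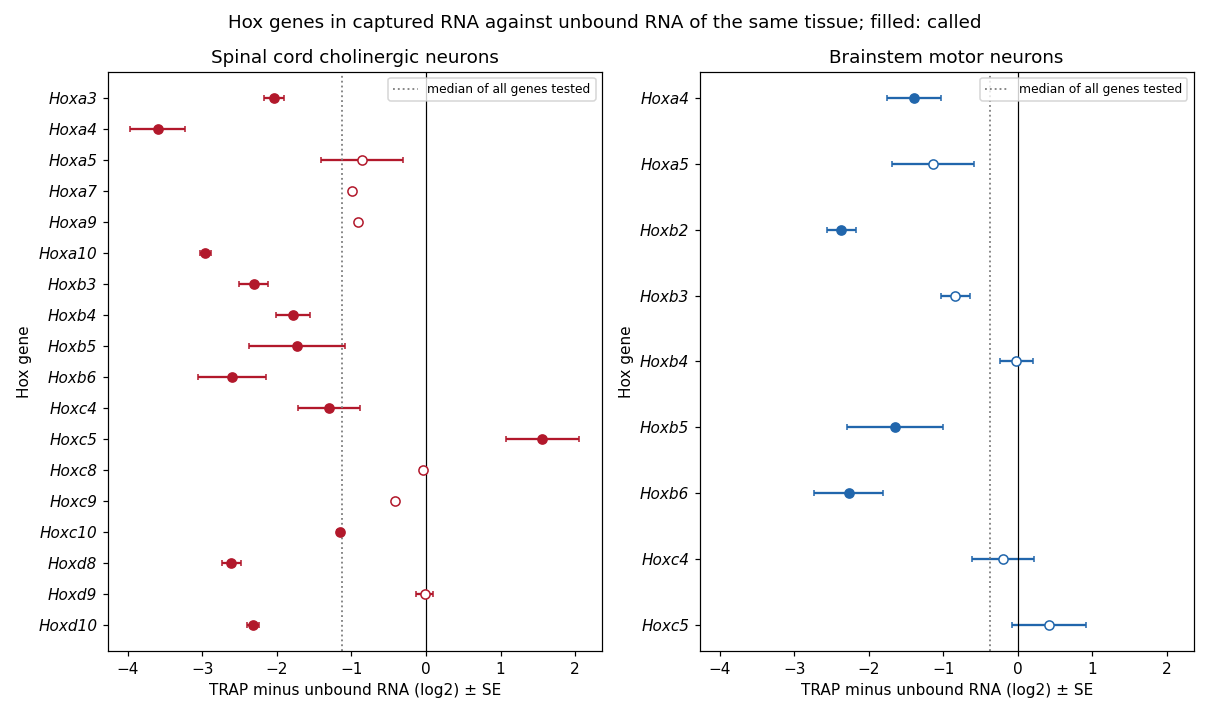
Captured minus unbound RNA (x axis, log2 ± SE, n = 3 arrays a fraction, fit over all arrays) of each Hox gene tested in cord (left) and brainstem (right). Filled points were called, and the dotted line is the median of all genes tested, -1.12 in cord and -0.38 in brainstem; Hoxc5 is the point right of zero in the cord.

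In the brainstem, 9 Hox genes were tested, of which limma called 0 higher and 4 lower in captured than in unbound RNA (0 and 6 at an unadjusted p under 0.05), where 9.42% of all genes were higher and 32.3% lower. The 4 were Hoxb2 (-2.37, adjusted p = 1.16e-18), Hoxb6 (-2.27, adjusted p = 1.36e-05), Hoxb5 (-1.65, adjusted p = 0.0214) and Hoxa4 (-1.39, adjusted p = 0.000626). Captured levels of Hoxb2, Hoxb6 and Hoxa4 were under 6, with bounds of at least 1.38-fold, 1.46-fold and 1.86-fold. Quantile normalization gave 1828 genes higher and 2085 lower in place of 978 and 3350, and 2 Hox genes lower, Hoxb5 and Hoxb6. The spread used for these p-values comes from all arrays, most of which hold no Hox signal. In the arrays of brainstem and cord the residual SD of Hox genes was 3.09 times that over all arrays (median over the members at 6), against 0.784 times for all genes. With the spread of the 6 brainstem arrays alone, 0 of 9 were called higher and 0 lower (8.9% and 30.9% of all genes; 0 and 2 Hox genes at an unadjusted p under 0.05), with an adjusted p of 0.0522 for Hoxb2, 0.335 for Hoxb6, 0.614 for Hoxb5 and 0.438 for Hoxa4. Adding the preparation number as a block to those arrays gave 2 lower calls, Hoxa5 (adjusted p = 0.00276) and Hoxb2 (adjusted p = 0.031), where 9.23% of all genes were higher and 31.4% lower, and over all arrays the block left the count at 4 (9.41% higher, 32.3% lower).

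Single arrays also moved the count: lower calls numbered 9 without unbound preparation 1, 2 without captured preparation 1, 1 without unbound preparation 2 and 0 without unbound preparation 3, and 2 genes were called higher without captured preparation 1. Without both arrays of preparation 1, 4 of 10 were lower in the fit over all arrays and 5 of 10 in the fit of the compared arrays, against 32.9% and 32.8% of all genes (9.75% and 10% were higher), again near the background. Hoxb2 measured 4.35 and 4.4 in those captured arrays, against 6.91 and 7.58 in the unbound ones (at least 2.37-fold, adjusted p = 0.00962 in the fit of the compared arrays). Hoxb6 measured 5.14 and 5.38 in captured RNA, against 7.97 and 8.58 in unbound RNA (at least 4.84-fold, adjusted p = 0.00832). Hoxa4 measured 6.37 in both captured arrays, against 7.98 and 8.36 in unbound RNA (-1.8, adjusted p = 0.00805). In these 3 genes captured and unbound arrays did not overlap, with only 2 arrays a fraction. How often this holds over all genes was not counted. Hoxb5 and Hoxc5 were close in the 2 fractions there (-0.33 and -0.32), and Hoxc4 was at 0.56, none of them called.

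The difference between cord and brainstem in captured minus unbound RNA was tested directly. Of 19 Hox genes, 0 were called higher and 7 lower in the cord, where 2.56% of all genes were higher and 29.2% lower, with a median of -0.64 over all genes. The 7 were Hoxa10 (-2.9), Hoxd10 (-2.26), Hoxa4 (-2.21), Hoxd8 (-1.9), Hoxb4 (-1.76), Hoxb3 (-1.47) and Hoxc10 (-1.09). For Hoxa10, Hoxc10, Hoxd8 and Hoxd10 both brainstem fractions were under 4, so their difference repeats the decrease within the cord, and for Hoxa4 the captured cord level was near the array minimum, so the size of its difference carries no order. With quantile normalization 1064 genes were higher and 1019 lower in place of 276 and 3145, and the Hox calls were 2 higher (Hoxc9 and Hoxd9) and 4 lower (Hoxa4, Hoxa10, Hoxb4 and Hoxd8). The fit of the compared arrays called Hoxa10, Hoxc10, Hoxd8 and Hoxd10 alone (2.63% of all genes higher, 27.9% lower), and with the replicate block over all arrays 1 gene, Hoxc5, was higher and 8 were lower (2.54% and 29.2% of all genes), and with the block over the compared arrays 0 were higher and 7 lower (2.55% and 27.5%). Without brainstem preparation 1, in both fits, 2 were called higher (2.37% and 2.85% of all genes), Hoxc5 (1.89) and Hoxb2 (1.05), and 9 lower (25.9% and 27.9%), among them Hoxb5 and Hoxc4. With all arrays kept, limma gave 1 Hox gene higher and 11 lower at an unadjusted p under 0.05. Leaving out 1 unbound array, that of brainstem preparation 1, gave 3 higher and 4 lower, and leaving out captured brainstem preparation 3 gave 1 higher.

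Brainstem and cord were then set against the forebrain. Captured RNA of cholinergic neurons from striatum and basal forebrain, of the same driver and line, had no Hox gene other than Hoxa5 at 6. Without the rule on unbound RNA, 5 of 6 Hox genes tested were called higher in brainstem motor neurons than in these forebrain neurons (18.2% of all genes). The forebrain levels of these genes were 2.34 to 2.55, near the array minimum, so with levels under 6 set to 6 the brainstem was at least 7.74-fold higher for Hoxb5, 6.41-fold for Hoxc4, 3.18-fold for Hoxb3, 2.28-fold for Hoxc5 and 1.78-fold for Hoxb4. Without brainstem preparation 1 those bounds were 45.4-fold, 19.4-fold, 4.69-fold, 4.95-fold and 2.51-fold, and Hoxa4 (at least 1.29-fold) joined them, making 6 of 7 (18.1% of all genes). In cord cholinergic neurons 14 of 15 were called higher (11.8% of all genes), that is every one tested except Hoxa5. With the rule, 1 of 5 was called in brainstem (17.1% of all genes) and 1 of 14 in cord (8.79%), in both cases Hoxc5, whose cord level was at least 19.3-fold higher. Without brainstem preparation 1 the rule left 1 of 6 called in brainstem, Hoxc4 in place of Hoxc5 (16.9% of all genes). In unbound RNA set against the mean of cortex, striatum and basal forebrain, 8 of 9 Hox genes tested were called higher in brainstem (20.4% of all genes; 9 of 10 and 21.7% without preparation 1) and 17 of 18 in cord (22.8%), again all but Hoxa5. Apart from Hoxa5, every Hox gene in these forebrain comparisons passed the minimum of 6 through its brainstem or cord level alone. It was under 6 in the forebrain, so these counts restate the levels and are no separate test. With all arrays kept, only Hoxc5 was above unbound RNA in its own tissue. The others met the rule through captured forebrain levels slightly above unbound ones near the array minimum, such as Hoxa9 in striatum (2.56 and 2.2). The numbers tested under the rule therefore do not count enriched genes. The cerebellum, which forms from the first hindbrain segment in front of the Hox domain, had 0 of 1 called higher (34.5% of all genes) and 0 lower (10.8%), the 1 gene tested being Hoxa5.

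Hoxa5 stood apart from the other members in 1 of its 2 probe sets only. The one with the highest mean gave a level of at least 6 in 28 of 30 groups. It measured 11.46 ± 0.59 (SD, n = 3) in Cort+ neurons and 10.86 ± 0.79 (SD, n = 3) in Cck+ neurons of the cortex. In the cerebellum it measured 9.46 ± 0.66 in Golgi neurons (n = 3), 9.28 ± 0.86 in Purkinje neurons (n = 6) and 9.14 ± 0.27 in granule neurons (n = 3). The lowest levels were 5.53 in Pnoc+ neurons and 5.08 in mature oligodendrocytes of the cerebellum. The Cort+ and Cck+ levels did not differ beyond their spread, nor did the 3 cerebellar ones, while the remaining TRAP populations lay between 6.21 (cortical astrocytes) and 8.73 (layer 5a neurons). Unbound RNA of the 4 other tissues lay between 7.62 ± 0.5 (cerebellum, SD, n = 7) and 8.36 ± 1.53 (striatum, SD, n = 6). Cord and brainstem were in the middle of this range: 7.53, 7.26 and 7.49 in captured and 8.13, 8.13 and 8.58 in unbound cord RNA, and 6.16, 7.11 and 7.17 in captured and 7.41, 8.2 and 8.24 in unbound brainstem RNA.

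The second probe set of Hoxa5 behaved like the other Hox genes. Its mean was 7.63 in captured and 9.67 in unbound cord RNA, and 6.39 ± 2.26 in captured and 8.47 ± 2.79 in unbound brainstem RNA (SD, n = 3), or 7.68 and 10.08 without preparation 1, while its highest mean in the other 26 groups was 3.67, in Drd1+ neurons. Only the first probe set therefore gave signal in forebrain and cerebellum, and the values there are those of that probe set, not of 2 that agree. Whether the signal of the first probe set there comes from Hoxa5 transcripts was not tested. That signal was called higher in captured than in unbound RNA in 6 of the other 22 populations, Cort+ (3.73), Cck+ (3.13), Golgi (1.84), Purkinje (1.66), granule (1.52) and layer 5a neurons (1). It was called lower in 5: mature oligodendrocytes of cerebellum (-2.54) and cortex (-1.3), Pnoc+ neurons (-2.21), cortical astrocytes (-1.53) and striatal cholinergic neurons (-1.27). In these 22 comparisons 17.3 to 74.8% of all genes were called in either direction, and Hoxa5 was the only Hox gene tested in each. In the fit of each pair's own arrays the counts were 5 higher and 3 lower, and layer 5a neurons (adjusted p = 0.209), striatal cholinergic neurons (0.228) and cortical mature oligodendrocytes (0.132) were not called. The second probe set was under 6 in all 22 populations and was not tested there.

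**Figure D5:**
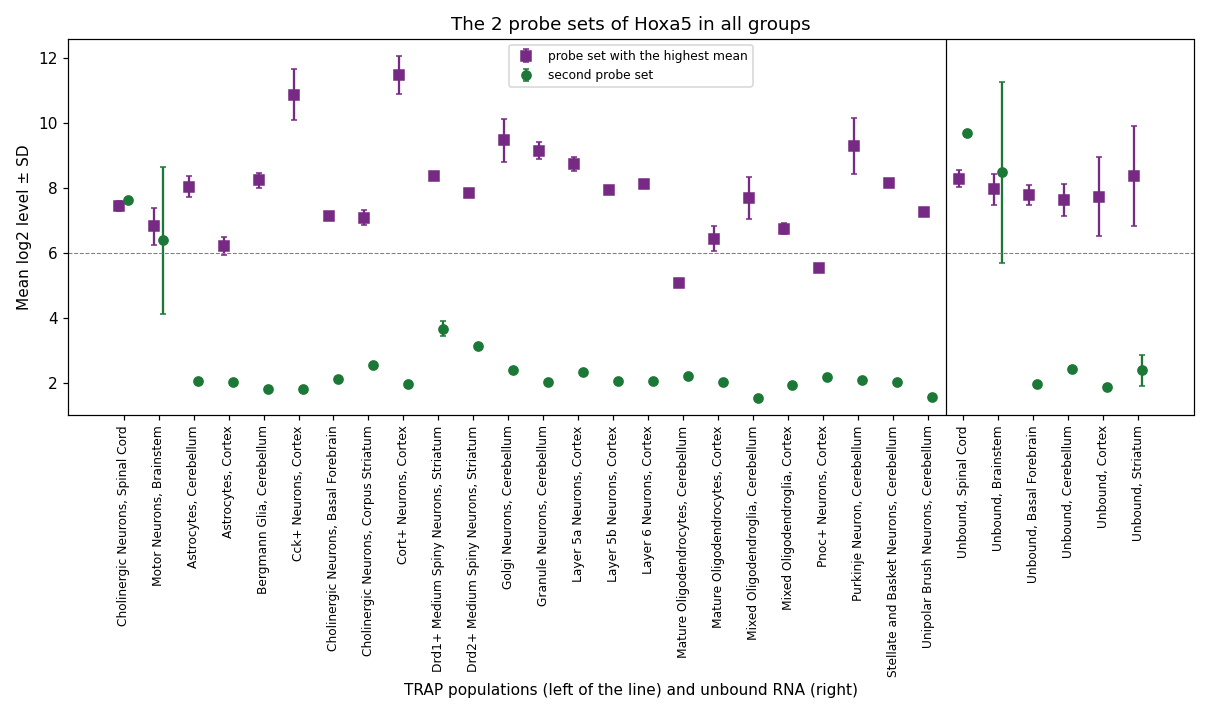
Mean log2 level ± SD of the 2 probe sets of Hoxa5 (y axis) in the TRAP populations and unbound tissues (x axis), cord and brainstem first in each block. The second probe set is above 6 in the 4 cord and brainstem groups and at 3.67 or below in the other 26, while the first is above 6 in 28 groups.

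For 14 members no group reached 6. Of these, Hoxa2, the Hox gene that reaches furthest forward in the hindbrain, came close in unbound brainstem RNA, at 4.68, 5.27 and 5.91, against 3.43, 3.43 and 3.45 in captured RNA. Hoxd1 was at 5.82 in all 3 unbound cord arrays and 4.27 in all unbound brainstem arrays, and at 2.71 in captured cord RNA. Hoxc6, the gene of forelimb-level lateral motor columns, gave probe sets that disagree. The one chosen measured 4.32 in captured and 3.64 in unbound cord RNA, and 3.81 in captured and 5.71 in unbound brainstem RNA. Its other 2 measured 4.71 and 5.45 in captured and 5.69 and 5.4 in unbound cord RNA, with at most 2.55 in the brainstem, so the order of the tissues depends on the probe set. Hoxd3 measured 4.23, 5.41 and 5.41 in unbound brainstem RNA and 2.69 in captured RNA, and Hoxb13 reached 4.12 in 1 unbound cord array. Hoxb1, Hoxb7, Hoxb9, Hoxa11, Hoxa13, Hoxc13, Hoxd11, Hoxd12 and Hoxd13 were below 4 in every cord and brainstem array. A second probe set of Hoxa9 measured 3.2 in captured and 5.5 in unbound cord RNA, below 6 where the chosen one was above 12.

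Genes that work with Hox proteins or control them were read from lists chosen for this purpose. Of the TALE cofactors, the homeodomain partners of Hox proteins, 7 of 8 on the array were tested in the brainstem and 6 in the cord. In the cord 0 were higher and 4 lower in captured RNA, where 53.3% of all genes were lower: Meis1 (-3.29), Pknox2 (-1.67), Meis2 (-1.6) and Pknox1 (at least 5.63-fold). In the brainstem 0 were higher and 3 lower, where 32.3% of all genes were lower: Meis1 (-1.5), Meis2 (-1.42) and Pknox1 (at least 2.49-fold). Pbx2 and Pbx3 were at 6 or above in all 4 groups. Of 19 upstream regulators of Hox genes on the array, 9 were tested in each tissue. In the cord 0 were higher and 8 lower, the Polycomb genes Bmi1 (-2.41), Eed (-2.16) and Suz12 (-1.39), at 6 or above in both fractions, and 5 genes with captured levels under 6: the Polycomb genes Phc1 (at least 14.7-fold) and Ezh2 (at least 3.75-fold), the Trithorax gene Kmt2a (at least 2.94-fold), the retinoic acid enzyme gene Aldh1a2 (at least 2.24-fold) and Egr2, which controls Hox genes in hindbrain segments (at least 1.91-fold). In the brainstem 0 were higher and 7 lower, among them Phc1 (-2.46) and Bmi1 (-1.54), Aldh1a2 (at least 4.96-fold), Kmt2a (at least 1.84-fold) and Ezh2 (at least 1.43-fold). With quantile normalization 1 TALE gene was higher and 2 lower in the cord and 1 higher and 3 lower in the brainstem, while of the regulators 0 were higher and 6 of 9 lower in the cord and 0 higher and 4 of 7 lower in the brainstem. The Cdx genes were below 6 in all 4 groups. Glial marker lists moved the same way: all 5 oligodendrocyte and all 5 astrocyte markers were lower in captured RNA in both tissues, with medians of -4.7 and -4.77 in the cord and -3.42 and -4.31 in the brainstem. Summed astrocyte markers lay at 9.02 to 10.46 in captured and 14.44 to 14.92 in unbound cord RNA, and at 8.63 to 9.45 in captured and 13.13 to 13.72 in unbound brainstem RNA. The part of glial RNA in the lower values of Hox genes and regulators was not tested.

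Transcription factors of motor neuron identity went in both directions. In the cord 5 of 9 tested were higher and 2 lower in captured RNA, where 5.38% of all genes were higher and 53.3% lower, with Isl1 (3.97), Mnx1 (at least 3.58-fold) and Isl2 (at least 1.03-fold) up and Pou3f1 (at least 2.22-fold) down. In the brainstem 4 of 9 were higher and 3 lower, where 9.42% of all genes were higher and 32.3% lower, with Isl1 (5.89), Tbx20, a gene of cranial motor neurons (at least 6.78-fold), and Mnx1 up and Lhx1 (at least 3.19-fold) down. Mnx1 measured 3.75, 6.88 and 7.37 in captured brainstem RNA, with 2.38 in all unbound arrays. Isl1 also stands in the cholinergic list. Between the 2 captured populations, Isl1 (-1.35), Tbx20 (at least 6.78-fold) and the TALE gene Meis3 (at least 2.87-fold) were lower in cord, with or without brainstem preparation 1. Mnx1 (1.84) and Isl2 (at least 1.03-fold) were called higher in cord, but Mnx1 was not called in the fit of the compared arrays (adjusted p = 0.0554), and without preparation 1 the differences of 0.71 for Mnx1 and 0.97 for Isl2 were under 2-fold and neither was called. Of other homeobox and forkhead genes with regional patterns, 5 were tested in cord, with Irx3 (3) higher and Pou4f1 (at least 5.96-fold), Lbx1 (at least 1.73-fold), En2 (at least 1.29-fold) and Gbx1 (at least 1.27-fold) lower in captured RNA. Of 8 tested in brainstem 1 was higher, Irx3 (1.83), and 7 were lower, among them Pou4f1 (-2.38), En2 (at least 2.54-fold) and Otx2, the forebrain and midbrain gene (at least 2.24-fold). The shares of all genes are those given above for each tissue. Otx2 was also lower in unbound cord than in unbound brainstem (at least 2.24-fold).

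Over the 30 group means, the genes most like the mean of the 19 members at 6 were Nmu (r = 0.955), S100a9 (0.934), Gm38462 (0.928), Hoxb5os (0.909) and Mybpc2 (0.908). These are correlations over groups, in which a few cord and brainstem groups set the value. Hoxb5os, a transcript on the strand opposite Hoxb5, measured 9.75 in captured and 9.17 in unbound cord RNA, and 6.57 in captured and 6.67 in unbound brainstem RNA, with at most 5.26 elsewhere. Nmu, the neuropeptide neuromedin U, reached 7.48 in unbound cord RNA alone, against 4.31 in captured cord RNA.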

How the data were processed

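Captured RNA of 24 populations and unbound RNA of 6 tissues were hybridized to Affymetrix arrays carrying 45101 probe sets. The deposited values are linear intensities that the authors normalized with GCRMA within groups of replicates, per the series text and the submitters' processing notes, where no version is given. Per the labels, RNA was amplified in an Affymetrix procedure of 2 cycles. Here intensities were floored at 1 and put on a log2 scale, and each group was shifted (by -0.58 to 1.29) to give all groups the same average over 18 biotinylated controls. One fit with 30 group means was made over all arrays in limma 3.58.1 (R 4.3.3, with the data.table package, version 1.17.8) with a trended prior, and p-values were adjusted by Benjamini-Hochberg over all genes with a mean of at least 6 in a compared group. A call needs an adjusted p under 0.05 and a 2-fold difference, and comparisons between captured populations also require enrichment over unbound RNA where stated. Bounds on folds set levels under 6 to 6. The script was tested on simulated data.

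Same-numbered captured and unbound arrays deviated together in brainstem (r = 0.56, 0.52 and 0.44), where the number was therefore also fitted as a block, and not in cord (0.06, -0.2 and -0.25). Brainstem arrays numbered 2 and 3 also did so across numbers (r = 0.42 and 0.38), while those numbered 1 went against them (-0.52 to -0.45). These values set number 1 apart from 2 and 3 and show little pairing by number beyond that. The labels do not state that replicates come from separate animals beyond calling them independent, so p-values measure the spread between these arrays, and the number of arrays limits the precision. That spread is the one left after GCRMA within groups of replicates, and how far this step narrowed it was not tested. All members are accounted for. Values in every array are given for members called in the captured against unbound, cord against brainstem and difference tests (up to 8 per comparison and direction), for members at 6 outside brainstem and cord, and for same-numbered members of opposite sign, while the other members are described by differences or ranges. Up to 4 called genes are named per list, and the 5 genes whose group means are most like those of the members. The members and lists were chosen with earlier results of these data known. Alternatives were other scalings, filters, probe set rules, call rules, fits and left-out arrays.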

Additional observations from a re-analysis of the deposited data

Results flagged for a closer look

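The captured minus unbound difference was tested between cord and brainstem and was lower in the cord for 7 of 19 Hox genes. Of all genes 29.2% were lower, a share near that of the Hox genes, with a median of -0.64. With quantile normalization that median was 0.06, with 1064 genes higher and 1019 lower, and fewer Hox genes were called lower, as given above. The difference was -2.9 for Hoxa10, -2.26 for Hoxd10, -2.21 for Hoxa4, -1.9 for Hoxd8, -1.76 for Hoxb4, -1.47 for Hoxb3 and -1.09 for Hoxc10. For Hoxa10, Hoxd10, Hoxd8 and Hoxc10 the brainstem gave no signal above a level of 4 in either fraction. The fit of the compared arrays called these 4 genes, and gave adjusted p of 0.252 for Hoxa4, 0.128 for Hoxb3 and 0.145 for Hoxb4.

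Probe sets that the comparisons do not use also gave signal above 6 in cord or brainstem while staying below it in the other 26 groups. The second probe set of Hoxa5 had means of 7.63 in captured and 9.67 in unbound cord RNA, and of 6.39 ± 2.26 in captured and 8.47 ± 2.79 in unbound brainstem RNA (SD, n = 3), or 7.68 and 10.08 without preparation 1. The second probe set of Hoxd8 had 8.02 in captured and 11.12 in unbound cord RNA, beside 8.2 and 10.81 for the chosen one. The second of Hoxb3 had 7.17 in unbound cord and 6.06 in unbound brainstem RNA. A probe set annotated to both Hoxb8 and Hoxb7 had 8.73 in unbound cord and 6.29 ± 2.19 (SD, n = 3) in unbound brainstem RNA (7.55 without preparation 1), where Hoxb7's own probe set lay at the array minimum, so that signal cannot be assigned to 1 of the 2 genes.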

How the results depend on the processing

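Counts of Hox genes called changed with the scaling, the rule on unbound RNA, the arrays that give the spread and brainstem preparation 1, as listed here. The median over all genes moved with the scaling: with no further scaling and with quantile normalization it was -1.49 and 0.1 for captured against unbound RNA in cord (-1.12 as reported), -0.27 and 0.04 in brainstem (-0.38), -1.13 and 0 for cord against brainstem in captured RNA (-0.81), 0.11 and -0.03 in unbound RNA (-0.07), and -1.1 and 0.06 for the difference test (-0.64). Under the same 2 scalings, genes higher and lower in captured RNA numbered 300 and 6431, then 2467 and 2439, in cord (551 and 5468 as reported), and 1156 and 2998, then 1828 and 2085, in brainstem (978 and 3350). Between the captured populations they numbered 23 and 2449, then 499 and 533 (49 and 1576), in unbound RNA 1047 and 559, then 849 and 984 (738 and 864), and in the difference test 124 and 5727, then 1064 and 1019 (276 and 3145). In the brainstem, Hox genes lower in captured RNA (4 as reported) numbered 2 with quantile normalization, 9 with no filter, 1 with a minimum of 8, 2 with the 2-fold threshold inside the test, 0 in the fit of the compared arrays and 2 there with the replicate block. In the cord, the 1 higher became 3 with quantile normalization and 0 with the mean of all probe sets or the threshold inside the test, and the 11 lower became 4 with quantile normalization. For cord against brainstem in captured RNA, the 1 higher became 5 with quantile normalization, 0 with the mean of probe sets, 0 in the fit of the compared arrays with or without the replicate block, 10 without the rule on unbound RNA and 8 with both of these choices. Without preparation 1 it was 10 when that rule was dropped, in either fit, and the 0 lower became 1 with the rule and 5 without it. In unbound RNA the 0 lower in cord became 2 with no filter and 2 without preparation 1. In the difference test the 0 higher became 2 with quantile normalization, no filter or preparation 1 left out and 1 with the replicate block, and the 7 lower became 11 with no further scaling, 4 with quantile normalization, 3 with the threshold inside the test and 4 in the fit of the compared arrays. Against forebrain cholinergic neurons, the 1 higher in brainstem became 2 with no further scaling, 3 with quantile normalization, 0 with a minimum of 8 or the mean of probe sets, 5 without the rule and 6 without both rule and preparation 1, and the 1 higher in cord became 5 with quantile normalization, 0 with the mean of probe sets and 14 without the rule. In unbound RNA the 8 higher in brainstem became 14 with no filter and 3 with a minimum of 8, and the cerebellum's 0 lower became 1 with quantile normalization. For Hoxa5 in the other populations, the 6 higher became 2 with the mean of probe sets or the threshold inside the test, 5 with the arrays of each pair alone and 0 with its other probe set, which was under the minimum and not tested in any of them, and the 5 lower became 8 with no further scaling, 3 with quantile normalization or the arrays of each pair alone, 1 with a minimum of 8, 2 with the threshold inside the test and 0 with the mean of probe sets or its other probe set. Calls of other Hox genes there (0) became 1 with quantile normalization (Hoxb4) and 45 with no filter.

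With 1 array left out at a time, lower calls numbered 0 to 9 in brainstem and 10 to 12 in cord, and higher calls 0 to 2 and 1 to 1. Between cord and brainstem they were 1 to 2 higher and 0 to 3 lower in captured RNA, 10 to 14 and 0 to 2 in unbound RNA, and 0 to 3 and 4 to 9 in the difference test. The 2 higher calls came without captured cord replicate 3, the 3 lower ones without captured brainstem replicate 1, and the 2 lower ones in unbound RNA without unbound brainstem replicate 1. Against the forebrain, higher calls were 0 to 4 in brainstem and 1 to 2 in cord for captured RNA, and 5 to 9 and 16 to 17 for unbound RNA, with 4 without captured brainstem replicate 1, 0 without replicate 2 or 3, 2 without captured cord replicate 3 and 5 without unbound brainstem replicate 3. 2 genes turned direction: Hoxb5 in the brainstem lay between -3.01 and 0.9 with 1 array left out, the second without captured replicate 1, and Hoxa3 in the cord at 0.05 with the mean of all probe sets. The cause of these shifts was not tested. Besides the values given, the replicate block over all arrays changed the count of Hox calls only in the difference test, to 8 lower, where over the compared arrays it was 7. Levels near the array minimum carry no order.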
